A study of Mus musculus with 3 samples.

Results

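A set of 43 extracellular matrix genes that feeder fibroblasts are known to express was followed across mouse embryonic stem (ES) cell cultures that differed at Pcgf6. The genes were chosen by name: fibrillar and other collagens, basement membrane proteins, elastic fibre proteins and cross-linking enzymes, proteoglycans, adhesive proteins, proteases with their inhibitors, and 1 collagen chaperone. No cutoff on a measured value picked a member, but the list was drawn up with earlier results of these data known. The counts below are therefore a description and not independent support. Probes were matched for 41 of the 43 among 20274 named genes on the array. Col6a3 and Col12a1 were not matched. A gene was counted as measured on an array when its probe was well above background there. By that rule 38 members were measured on at least 1 array and 29 on all 3, against 16048 genes measured at least once in the whole series.

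The cultures were male mouse ES cells in 3 groups with 1 array each. The wildtype cells were unedited. The Pcgf6KO cells had been made with Cas9. The Pcgf6KO+ Pcgf6_flag cells were Pcgf6KO cells infected with a lentivirus for Flag-tagged Pcgf6. This protein is the RING finger subunit that defines the variant Polycomb complex PRC1.6. All 3 groups shared the same culture: DMEM with fetal calf serum and leukemia inhibitory factor, on mouse embryonic fibroblasts whose division had been stopped with mitomycin-C. Whether feeder cells were removed before TRIzol extraction was not stated in the labels, and neither were the number of clones, the position of the edit or the promoter of the introduced gene. A source label of every sample begins with the word muscle, whereas the cell type label says embryonic stem cell. The RNA carried the Cy3 dye on an Agilent mouse array read in 1 colour.

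The extracellular matrix is the protein and sugar network that cells secrete around themselves. Fibroblasts build its interstitial form, in which fibrillar collagens are trimmed, cross-linked by lysyl oxidases and spaced by small leucine-rich proteoglycans. Basement membranes are thin sheets of laminin, type IV collagen, nidogen and perlecan, and ES cells and the primitive endoderm secrete them as well as fibroblasts do. A bulk culture on feeders therefore carries matrix transcripts of more than 1 cell type. In such RNA, fewer cells of a type and less RNA per cell cannot be told apart.

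The regulatory letters just before the start of 4 members are shown, beside which the values below can be read. Mmp3 and Col6a1 are shown as the only members with a listed promoter that had an AP-1 match. Each was lower on both other arrays than in wildtype. So were Bgn, Postn, Tnc and Fbln2, which had a listed promoter and no AP-1 match. A link between a motif and a difference was not tested. Col3a1 had the largest measured difference of the fibrillar collagens, and Sparc stayed at nearly the same level on all 3 arrays. The 180 bases before the RefSeq start are given from GRCm38.p6, 5′ to 3′ along the gene, with a match to AP-1 (TGANTCA) or to TEAD (GGAATG), on either strand, in capitals.
Mmp3 (chr9:7445642-7445821, plus strand): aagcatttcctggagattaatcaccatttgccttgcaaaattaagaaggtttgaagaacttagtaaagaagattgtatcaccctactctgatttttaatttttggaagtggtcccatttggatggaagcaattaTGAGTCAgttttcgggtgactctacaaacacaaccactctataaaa
Col6a1 (chr10:76726045-76726224, minus strand): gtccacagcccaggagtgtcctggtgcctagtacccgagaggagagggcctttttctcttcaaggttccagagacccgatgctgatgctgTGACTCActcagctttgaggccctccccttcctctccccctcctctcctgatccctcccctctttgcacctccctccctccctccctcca
Col3a1 (chr1:45311358-45311537, plus strand): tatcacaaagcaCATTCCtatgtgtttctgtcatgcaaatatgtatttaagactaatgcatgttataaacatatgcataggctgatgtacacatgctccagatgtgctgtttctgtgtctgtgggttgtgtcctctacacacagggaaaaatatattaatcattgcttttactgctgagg
Sparc (chr11:55420081-55420260, minus strand): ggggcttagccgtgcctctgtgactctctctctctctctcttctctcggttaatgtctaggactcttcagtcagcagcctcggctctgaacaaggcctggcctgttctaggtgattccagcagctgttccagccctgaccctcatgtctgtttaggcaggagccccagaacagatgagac
Mmp3 held TGAGTCA 46 bases before its start, and Col6a1 held TGACTCA 90 bases before its start. The Col3a1 match, CATTCC at 168 bases, is GGAATG read on the opposite strand. Sparc had neither motif in this stretch.

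Windows reaching from 250 bases before the start to 50 after it were listed for 28 of the 43 members and for 27025 genes. For the shares below, motifs were sought on both strands of the whole window. AP-1 matched 2 of the 28 members, 7.14%, against 8.97% of all genes. TEAD matched 5 (Col18a1, Col3a1, Col6a2, Nid1 and Timp1), 17.9% against 16.6%. The E-box CACGTG, bound by MGA and MAX of PRC1.6, matched only Fbln1, 3.57% against 8.09%. The E2F6 motif TTCCCGC matched only Timp2, 3.57% against 5.29%. One form of the serum response element matched 0 members and 0.078% of all genes. A match is a run of letters and not a measured binding site. The windows of members had a median GC content of 60.3%, with a range of 37.7% to 75%, against 52.8% for all genes. Among members with a window, the 12 that were at least 2-fold lower in Pcgf6KO than in wildtype had a median of 58.8%, and the 14 within 2-fold had 61.9%.

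Levels are given as log2 of the processed signal after each array was scaled to the 75th percentile of its own signals, so a level of 0 marks that percentile. Levels of different genes come from different probes and are not compared with one another. Each group had a single array, so no difference could be checked against replicates and none is tested. The precision is limited by the number of arrays. Repeated spots of one probe had an SD of 0.09 within each array. A fixed rule of 2-fold, a log2 difference of 1, was used to count genes. A gene measured on only 1 of the 2 arrays compared was given as a bound against the dimmest signal that was well above background on the other array. A bound is written as "at least N-fold". A gene with a bound can only come out lower on the array that did not measure it. The shares of probes well above background were 65.3%, 66.0% and 60.7% in wildtype, Pcgf6KO and Pcgf6KO+ Pcgf6_flag. The dimmest such signals were 52.7, 53.4 and 103 units. Wildtype and Pcgf6KO shared a slide, and the third array lay on another slide and in another scan run. In every comparison with the third array, the group cannot be told apart from slide and scan.

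Pcgf6 itself was read by 1 probe, at 1.87 in wildtype, 0.84 in Pcgf6KO and 0.42 in Pcgf6KO+ Pcgf6_flag. It was lower by 2.04-fold in Pcgf6KO than in wildtype. It was not higher in the cells that carry Flag-tagged Pcgf6 by their label. The position of the probe relative to the edit, or to the added gene, was not known here. The third array is called the flag-labelled array from here on, and its directions hold only as far as that label does.

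The first comparison sets the Pcgf6KO culture against wildtype. Of the 38 members measured on at least 1 of those arrays, 14 were at least 2-fold lower in Pcgf6KO, against 3.56% of 15879 genes tested. None was at least 2-fold higher, 0 of 38, against 6.61% of all genes. Of the 14, 4 were bounds of genes measured in wildtype only (Bgn, Postn, Tnc and Mmp3), which could not have come out higher. Restricted to the 34 members that both arrays measured, 10 were lower by the 2-fold rule, against 2.81% of the 14997 genes measured on both. The median difference over the 38 members was -0.80, and it was -0.02 over all genes.

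The second comparison sets the flag-labelled culture against Pcgf6KO. There 17 of 34 members were at least 2-fold lower on the flag-labelled array, 3 of them as bounds, against 10.0% of 15757 genes. In the other direction the count was 0, against 6.15% of genes. Among the 29 members measured on both arrays, 14 were lower, against 8.37% of all genes so measured. The median was -1.04 over the 32 members with a difference, and 0.00 over all genes. Col6a2 and Mgp were measured only in Pcgf6KO, too dim there to give a fold.

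Against wildtype, the flag-labelled array had 26 of 38 members at least 2-fold lower, 9 of them as bounds, against 6.28% of 15587 genes, and 0 higher, against 5.83%. Of the 29 members measured on both, 17 were lower, against 4.81% of all genes so measured. The median over the 38 was -2.17, and -0.03 over all genes. The 3 comparisons share arrays, so their counts are not independent of each other. Of the 17 members whose mean level was at or above the median over genes, 4, 5 and 7 were at least 2-fold lower in the 3 comparisons, with medians of -0.59, -0.025 and -0.50. Over all 8024 genes that bright, 0.648%, 1.79% and 1.21% were lower.

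**Figure D1:**
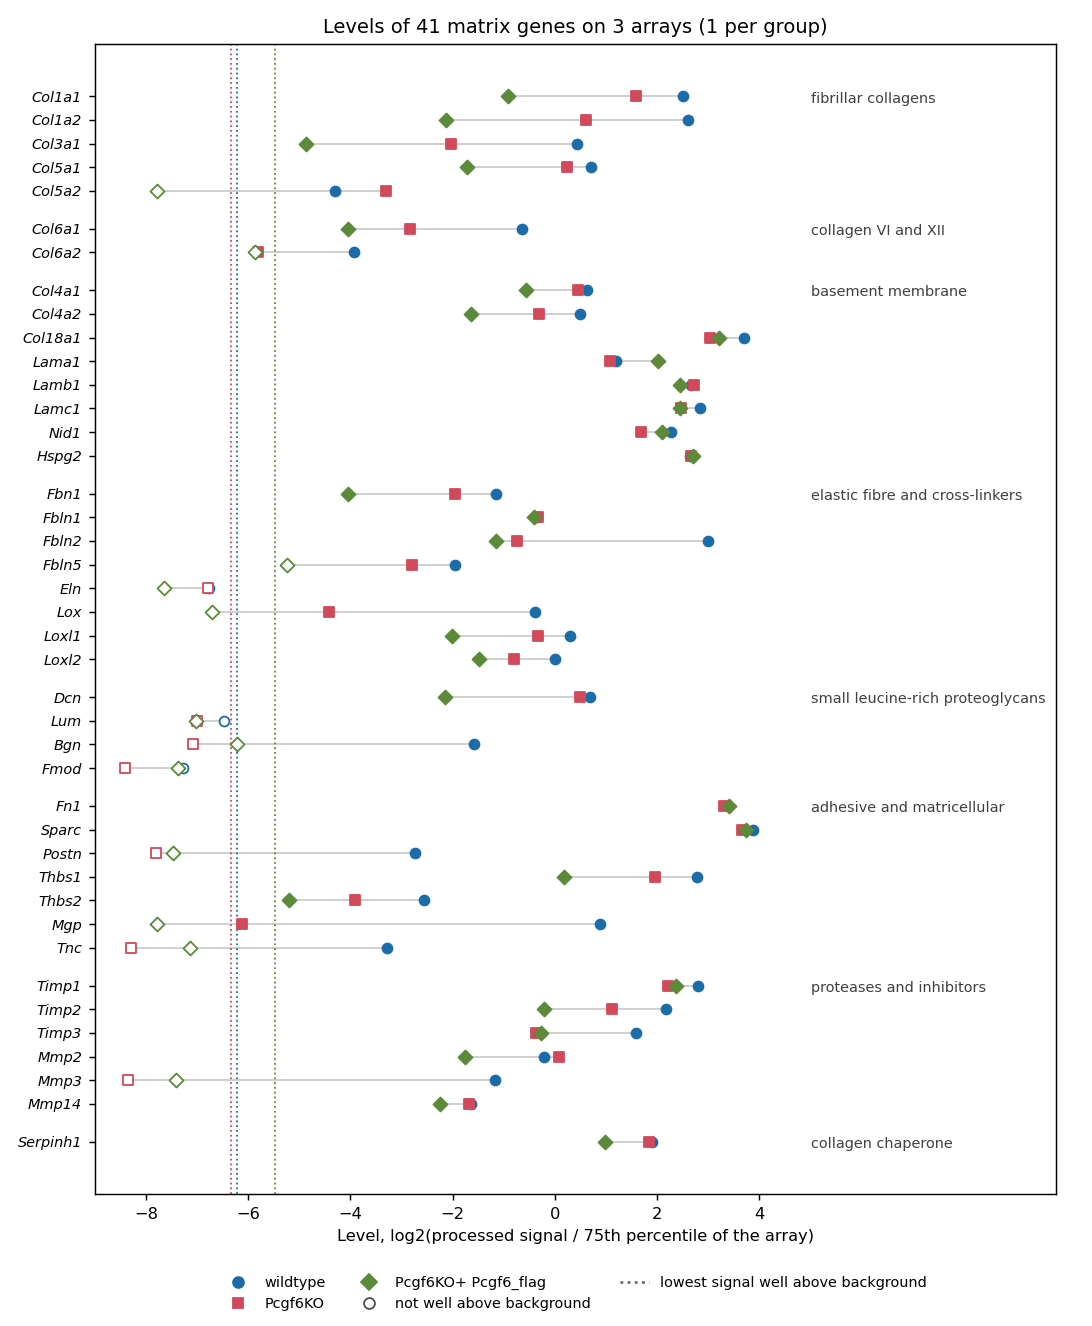
Level of each of the 41 matched matrix genes (log2 of processed signal over the 75th percentile of the array) in wildtype (circles), Pcgf6KO (squares) and Pcgf6KO+ Pcgf6_flag (diamonds), grouped by role. Open symbols were not well above background and dotted lines mark the dimmest signal that was. Fn1, Sparc and Hspg2 lie almost on one point, whereas Mgp is at 0.89 in wildtype and at -6.12 in Pcgf6KO.

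The fibrillar collagens, the load-bearing fibres of connective tissue, were lowest on the flag-labelled array without exception, all 5 of them at least 2-fold below both other arrays, Col5a2 by its bound. Col1a1 (NM_007742), the major chain of type I collagen, stood at 2.51 in wildtype, 1.58 in Pcgf6KO and -0.93 on the flag-labelled array. Its differences were -0.93 for Pcgf6KO minus wildtype and -2.51 for flag-labelled minus Pcgf6KO. Its partner chain Col1a2 (NM_007743) read 2.60, 0.60 and -2.13 in the same order. Col1a2 thus had a difference of -2.00 between Pcgf6KO and wildtype, against -0.93 for Col1a1. Between the flag-labelled array and Pcgf6KO the 2 chains differed by nearly the same amount, -2.51 and -2.74. Type I collagen is assembled from both of these chains.

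Col3a1 (NM_009930), the chain of the thin reticular fibres, read 0.43 in wildtype, -2.04 in Pcgf6KO and -4.86 on the flag-labelled array. It was 5.56-fold lower in Pcgf6KO than in wildtype and 39.2-fold lower on the flag-labelled array than in wildtype. Col5a1, whose chain starts collagen fibrils, read 0.71, 0.23 and -1.73. Col5a1 differed by only -0.48 between Pcgf6KO and wildtype, and by -1.96 between the flag-labelled array and Pcgf6KO. Col5a2, the second chain of type V collagen, ran the other way in the first comparison. Its level was -4.29 in wildtype and -3.31 in Pcgf6KO, a difference of 0.98 and the largest upward one of any member there. On the flag-labelled array Col5a2 was not well above background, at least 4.51-fold below Pcgf6KO and at least 2.29-fold below wildtype. Under normexp the Col5a2 value against wildtype was -0.95, inside 2-fold. Col3a1 and Col5a2 are next to each other in the gene order of GRCm38.p6 on chromosome 1, yet Col3a1 was lower and Col5a2 was not in Pcgf6KO.

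Type VI collagen forms beaded filaments close to the cell surface. Col6a1 read -0.65 in wildtype, -2.84 in Pcgf6KO and -4.06 on the flag-labelled array, so it was 4.59-fold lower in Pcgf6KO than in wildtype. Col6a2, its neighbour on chromosome 10, read -3.92 and -5.80 on the first 2 arrays, 3.68-fold lower in Pcgf6KO. On the flag-labelled array Col6a2 was not well above background and at least 2.96-fold below wildtype. Under normexp background correction the Col6a1 difference between the flag-labelled array and Pcgf6KO was -0.71 in place of -1.21, inside 2-fold. Both measured type VI chains were therefore at least 2-fold lower in Pcgf6KO.

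The basement membrane genes held their level far more than the fibrillar collagens did. In Pcgf6KO 0 of 8 were at least 2-fold lower than in wildtype, against 3.56% of genes, and 0 higher, against 6.61%. With 8 genes, a count of 0 lies near those shares. The median difference of the 8 was -0.28. On the flag-labelled array 2 of 8 were at least 2-fold lower than either other array, against 10.0% of genes for Pcgf6KO and 6.28% for wildtype. Both were type IV collagen chains. Lamb1 and Lamc1, the laminin chains found in most tissues, read 2.66, 2.71 and 2.44, and 2.85, 2.47 and 2.45. Hspg2, which encodes the heparan sulfate proteoglycan perlecan, read 2.63, 2.66 and 2.70 by its brightest probe. The widest difference between arrays was 0.06 by that probe. A dimmer Hspg2 probe read -0.40, -0.12 and -0.62. Nid1, the nidogen that links laminin to type IV collagen, read 2.28, 1.69 and 2.10. Col18a1, the source of endostatin, read 3.71, 3.04 and 3.20. None of these 5 genes differed by 2-fold between any 2 arrays. Lama1, the laminin chain of early embryonic basement membranes, was the member that stood highest on the flag-labelled array relative to the others, at 1.19, 1.07 and 2.02. Its difference from Pcgf6KO was 0.95, just inside 2-fold.

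Col4a1 and Col4a2 form the type IV collagen network. Col4a1 read 0.63, 0.45 and -0.57, and Col4a2 read 0.49, -0.31 and -1.64. Their differences between the flag-labelled array and Pcgf6KO were -1.02 and -1.33. With outlier spots kept the Col4a1 value was -0.98, inside 2-fold. The Col4a1 probe was spotted 10 times on each array, which gives its technical spread. The SD between its kept spots was 0.026, 0.049 and 0.039, with 10, 8 and 8 spots kept. Its highest spot on the flag-labelled array was at -0.52 and its lowest in Pcgf6KO was at 0.36, so the spots of those arrays did not overlap. This spread covers spots of 1 labelled sample and not separate cultures. The Col4a1 and Col4a2 genes lie side by side on chromosome 8, and their promoter windows overlap by 78 bases on opposite strands.

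Elastic fibres have a fibrillin scaffold, fibulins along it and a core of elastin. Fbn1, the main fibrillin, read -1.16 in wildtype, -1.96 in Pcgf6KO and -4.04 on the flag-labelled array. Of the fibulins, Fbln2 had almost its whole difference in the first comparison. It read 2.99 in wildtype, -0.75 in Pcgf6KO and -1.16 on the flag-labelled array, 13.4-fold lower in Pcgf6KO than in wildtype and 1.33-fold lower again on the flag-labelled array. Fbln5, needed for elastic fibre assembly, read -1.95 and -2.80 in wildtype and Pcgf6KO, and was at least 5.43-fold below Pcgf6KO on the flag-labelled array. Fbln1 read -0.36, -0.32 and -0.41 by its brightest probe, within 0.08 of one another, and -1.31, -1.47 and -1.67 by a dimmer one. The 3 fibulins therefore showed 3 patterns: level throughout, lower in both edited cultures, and lower mainly on the flag-labelled array. Eln, elastin itself, was not well above background on any array.

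The lysyl oxidases oxidise lysines in collagen and elastin so that fibres can cross-link. Lox (NM_010728), the founding member, read -0.38 in wildtype and -4.43 in Pcgf6KO, 16.5-fold lower. On the flag-labelled array Lox was not well above background, at least 34.3-fold below wildtype and at least 2.08-fold below Pcgf6KO. A second Lox probe gave a difference of -2.89 there, against -4.04 for the brighter probe. Averaging both probes gave -0.60 for the flag-labelled array against Pcgf6KO, inside 2-fold. Loxl1, which acts on elastin, read 0.29, -0.33 and -2.02, a difference of -0.62 in the first comparison and -1.69 in the second. Loxl2, which acts on type IV collagen, read 0.00, -0.80 and -1.49. Of the 3 enzymes only Lox was at least 2-fold lower in Pcgf6KO than in wildtype, and all 3 were at least 2-fold lower on the flag-labelled array than in wildtype.

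Small leucine-rich proteoglycans bind collagen fibrils and set their spacing. Dcn, decorin, read 0.69 in wildtype, 0.49 in Pcgf6KO and -2.14 on the flag-labelled array. Its difference was -0.20 in the first comparison and -2.64 in the second. Bgn, biglycan, read -1.58 in wildtype and was not well above background on either other array, at least 27.0-fold lower in Pcgf6KO and at least 15.0-fold lower on the flag-labelled array. The smaller bound on the flag-labelled array goes with its higher background limit and gives no order of those arrays. Lum and Fmod, lumican and fibromodulin, were not well above background on any array.

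Adhesive and matricellular proteins connect cells to fibres or tune that contact. Fn1, fibronectin, read 3.39, 3.31 and 3.40, and Sparc, a collagen-binding glycoprotein also known as osteonectin, read 3.87, 3.65 and 3.73. By these probes both were within 0.22 log2 units across all arrays. A second Sparc probe differed by -0.32 between the flag-labelled array and Pcgf6KO. Mgp (NM_008597), matrix Gla protein, which keeps soft tissue from calcifying, had the largest difference among members measured on both arrays of a comparison. Its processed signal stood at 7241 units for wildtype, 61.8 for Pcgf6KO and 21.0 for the flag-labelled array, where it was not well above background. After scaling it was 128-fold lower in Pcgf6KO than in wildtype and at least 82.8-fold lower on the flag-labelled array. The Pcgf6KO signal of Mgp lay close to 53.4 units, the dimmest signal well above background on that array, so the size of that fold is uncertain.

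Postn, periostin, read -2.74 in wildtype and was not well above background elsewhere, at least 12-fold lower in Pcgf6KO. Tnc, tenascin C, read -3.28 in wildtype and was at least 8.30-fold lower in Pcgf6KO. Both Tnc probes were above background in wildtype only. The thrombospondins, which bind matrix proteins and CD47, were highest in wildtype and lowest on the flag-labelled array. Thbs1 read 2.78, 1.97 and 0.17, and Thbs2 read -2.56, -3.90 and -5.20. Thbs2 was 2.53-fold lower in Pcgf6KO than in wildtype, and Thbs1 was 1.75-fold lower. The Thbs2 difference between the flag-labelled array and Pcgf6KO was -1.30, and -0.79 under normexp.

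Matrix metalloproteases cut matrix proteins and the tissue inhibitors of metalloproteases (TIMPs) block them. Mmp3, stromelysin, read -1.18 in wildtype and was not well above background elsewhere, at least 35.5-fold lower in Pcgf6KO and at least 19.8-fold lower on the flag-labelled array. Mmp2, a gelatinase, read -0.22, 0.07 and -1.75, and so was lower only on the flag-labelled array. Mmp14, the membrane-bound activator of Mmp2, read -1.64, -1.67 and -2.24, within 2-fold throughout. Timp1 read 2.81, 2.20 and 2.38, also within 2-fold, so these 2 genes held their level where Mmp3 did not. Timp2 read 2.18, 1.12 and -0.22, with differences of -1.06 and -1.34 in the first and second comparisons. Under normexp the first of these was -0.9999, just inside 2-fold. Timp3, the inhibitor that stays bound to matrix, read 1.59, -0.37 and -0.27. It was 3.91-fold lower in Pcgf6KO than in wildtype and differed by 0.10 between the flag-labelled array and Pcgf6KO. Serpinh1, the chaperone HSP47 that folds procollagen in the endoplasmic reticulum, read 1.90, 1.84 and 0.98. Its difference from wildtype was -0.05 in Pcgf6KO and -0.92 on the flag-labelled array.

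**Figure D2:**
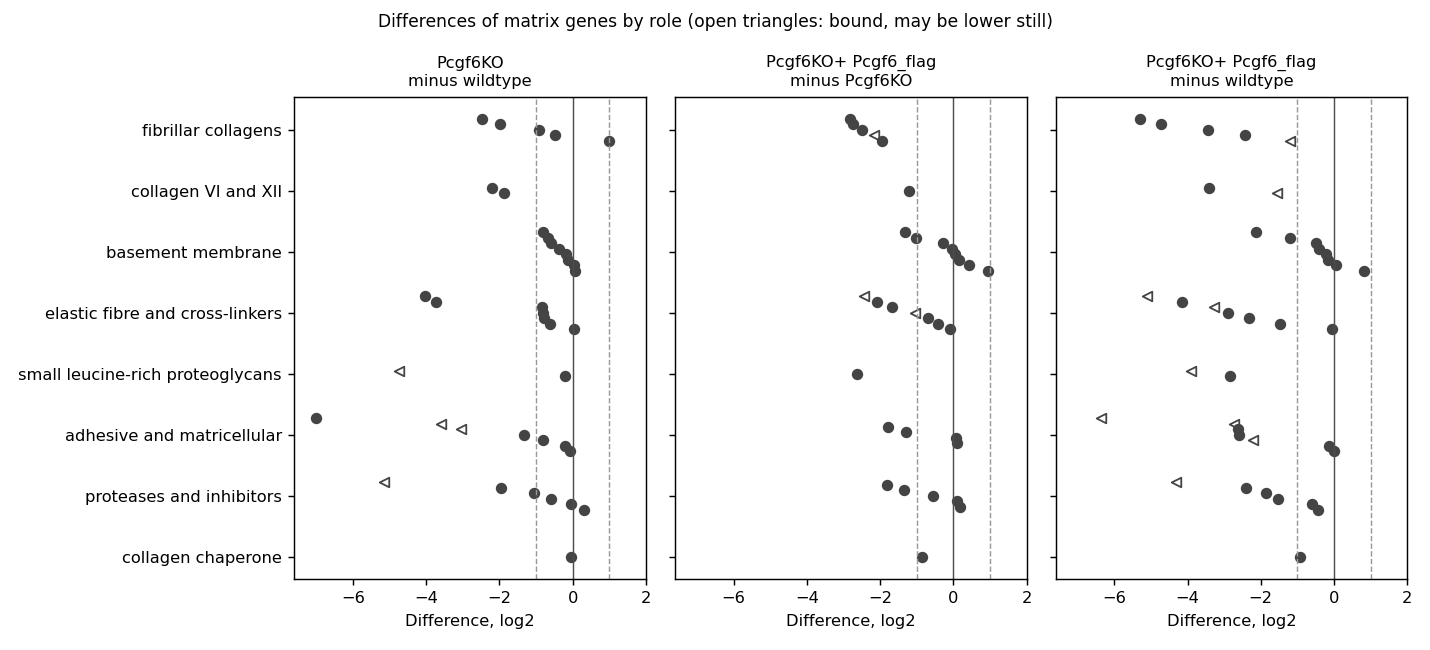
Log2 difference of each matrix gene, by role, in Pcgf6KO minus wildtype, Pcgf6KO+ Pcgf6_flag minus Pcgf6KO, and Pcgf6KO+ Pcgf6_flag minus wildtype. Filled points were measured on both arrays, open triangles are bounds, dashed lines mark 2-fold. Basement membrane genes lie close to 0, with medians of -0.28, 0.01 and -0.31, and the fibrillar collagens reach medians of -0.93, -2.51 and -3.43.

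By role, the median difference between Pcgf6KO and wildtype was -0.93 for 5 fibrillar collagens, -2.04 for 2 type VI chains and -0.80 for 7 elastic fibre and cross-linking genes. It was -1.34 for 7 adhesive and matricellular genes and -0.83 for 6 proteases and inhibitors. These medians include bounds. Without the 8 basement membrane genes the medians were -0.88, -1.32 and -2.52 in the 3 comparisons, and all 14 genes that were lower in Pcgf6KO were outside the basement membrane. The members closest to the 2-fold line in the first comparison were Timp2 at -1.06, inside the count, and Col1a1 at -0.93, outside it.

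Signals were also summed over the members of each role, in units of the 75th percentile of each array. A sum is led by its brightest probes. The fibrillar collagens summed to 14.8 in wildtype, 6.02 in Pcgf6KO and 1.09 on the flag-labelled array. Elastic fibre and cross-linking genes summed to 12.4, 3.22 and 1.91. The basement membrane genes summed to 42.9, 34.1 and 35.9, and the adhesive genes, led by Fn1 and Sparc, to 34.3, 26.5 and 25.0. All members together summed to 127, 83.9 and 73.6.

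**Figure D3:**
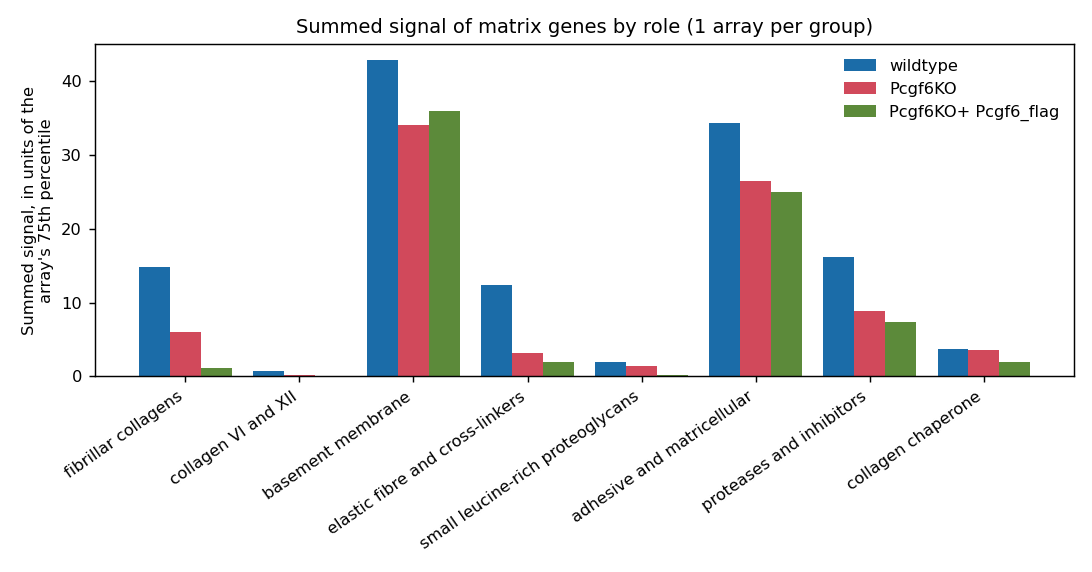
Summed scaled signal of the matrix genes of each role (bars, in units of the 75th percentile of each array) on the 3 arrays, 1 array per group and so no error bars. The sum for fibrillar collagens goes from 14.8 in wildtype to 6.02 in Pcgf6KO and 1.09 in Pcgf6KO+ Pcgf6_flag, while that for basement membrane genes stays between 34.1 and 42.9.

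Several members were read by more than 1 measured probe, which checks the reading of a gene within an array. In the first comparison 9 genes had several probes measured on both arrays, and the probes of all 9 fell on the same side of the 2-fold line. Their signs differed for Fbln1 and Sparc, both near 0. The same held for 8 of 8 genes in each of the other comparisons, where signs differed for Hspg2, and in the second comparison also for Nid1 and Sparc. The widest gap between probes of a gene was 1.16 log2 units, for Lox in the first comparison and for Nid1 in the second. The second Timp2 probe gave -1.80 for Pcgf6KO minus wildtype, against -1.06 for the brighter one.

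Markers of the cell types that the culture could hold were read in the same way. Their lists, too, were drawn up with earlier results of these data known. Of 13 fibroblast markers that are not matrix genes, 9 were at least 2-fold lower in Pcgf6KO than in wildtype, against 3.56% of genes. Of the 9, 2 were bounds. The median over the 13 was -1.27, and 0 were higher, against 6.61% of genes. Acta2, smooth muscle actin, read 3.64, 1.01 and -0.87, and S100a4 read 2.11, -0.41 and -2.49. The 13 markers summed to 59.3 for wildtype, 31.6 for Pcgf6KO and 22.6 for the flag-labelled array. Prrx1 and Fap were not well above background in Pcgf6KO, and neither were Prrx1, Fap and Pdgfrb on the flag-labelled array. On the flag-labelled array 4 of 11 of these markers were at least 2-fold lower than in Pcgf6KO, against 10.0% of genes. There 10 of 13 were lower than in wildtype, against 6.28% of genes. The part of the amount of fibroblast RNA in the matrix differences was not tested.

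The ES cell markers stayed level. All 10 were measured on every array, 0 were at least 2-fold different in any comparison, and they summed to 137 for wildtype, 124 for Pcgf6KO and 137 for the flag-labelled array. Few bright genes were called at all. Of the 8024 with a mean level at or above the median, 52, 144 and 97 were lower in the 3 comparisons. Another 65, 87 and 59 were higher, so 0 of 10 lies near the share for bright genes. The differences of the ES cell markers between Pcgf6KO and wildtype ran from -0.33 to 0.29. Primitive and parietal endoderm, the embryonic cells that secrete much basement membrane, had a mixed list. Of its 10 markers, 3 were at least 2-fold higher in Pcgf6KO than in wildtype, against 6.61% of genes, and 1 was lower, against 3.56%. On the flag-labelled array 5 were at least 2-fold lower than in Pcgf6KO, against 10.0% of genes. There 7 of 10 were lower than in wildtype, 3 of them as bounds, against 6.28% of genes, and 0 were higher, against 5.83%. Krt19, a keratin, read 1.03, 3.08 and 1.32, and Dab2, an endocytic adaptor, read -2.67, -1.41 and -4.88. The median difference of the list was -0.40 between Pcgf6KO and wildtype, and 7 of its 10 markers lay below 0. Its summed signal was 4.45, 10.3 and 3.15, and without Krt19 it was 2.41, 1.86 and 0.648. Its part in the basement membrane values was not tested. Of the 7 skeletal muscle markers, 5 were measured on all 3 arrays, and Myog and Ckm were not well above background on any array. Myod1, a muscle determination factor named here after its values were seen, read 1.40, 1.40 and 1.58. Of the 5 measured, 1 was at least 2-fold higher in Pcgf6KO than in wildtype, against 6.61% of genes, and 0 lower, against 3.56%. The flag-labelled array had 2 at least 2-fold lower than in Pcgf6KO, against 10.0% of genes, and 0 higher, against 6.15%. Against wildtype it had 1 lower, against 6.28% of genes, and 0 higher, against 5.83%. Tnnt3 read -1.79, -0.60 and -2.72, and Acta1 read -0.08, -0.15 and -1.70. Of the 5 endothelial markers, Cdh5 was not well above background on any array and the other 4 were measured on all 3. Kdr, a VEGF receptor, was 2.65-fold higher on the flag-labelled array than in Pcgf6KO, and Cd34 was 3.97-fold lower. Of the 4 matched blood and macrophage markers, Adgre1 was not well above background on any array, Lyz2 was measured in wildtype only, Ptprc in Pcgf6KO and on the flag-labelled array, and Csf1r on all 3. The summed signals of the endothelial list were 2.40, 3.45 and 2.68, and those of the blood list 1.24, 1.33 and 2.06.

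**Figure D4:**
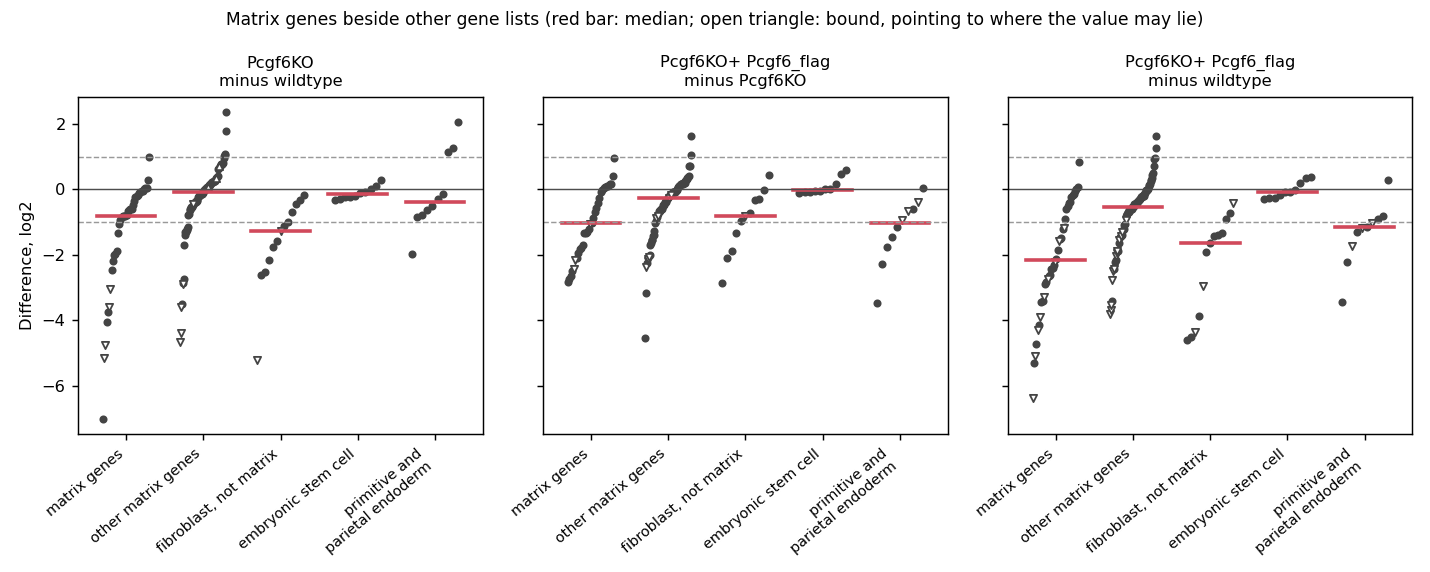
Log2 differences of the matrix genes beside 83 other matrix genes (82 matched), 13 fibroblast markers, 10 ES cell markers and 10 endoderm markers in the 3 comparisons. Points are genes, open triangles are bounds, red bars are medians and dashed lines mark 2-fold. In Pcgf6KO minus wildtype the medians are -0.80 for the matrix genes, -0.09 for the other matrix genes, -1.27 for the fibroblast markers and -0.15 for the ES cell markers.

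A wider list of 83 matrix genes, taken by function and not by fibroblast expression, was less one-sided. In Pcgf6KO 14 of 79 were at least 2-fold lower than in wildtype, against 3.56% of all genes tested. Another 5 were higher, against 6.61%, and the median of the list was -0.09. On the flag-labelled array 16 of 70 were lower than in Pcgf6KO, against 10.0% of genes. There 2 were higher, against 6.15%, with a median of -0.27. Against wildtype 25 of 75 were lower, against 6.28% of genes, and 2 higher, against 5.83%, with a median of -0.54. The list of collagen synthesis enzymes had 1 of 14 lower in Pcgf6KO, as a bound, against 3.56% of genes. Another 3 were higher, against 6.61%. Loxl4, another lysyl oxidase, read -1.72, 0.08 and -1.93, and Plod2, a collagen lysyl hydroxylase, read -3.13, -2.08 and -3.72. Both were highest in Pcgf6KO. P3h1, a prolyl hydroxylase for collagen, read -0.81, -0.80 and 0.82 and was 3.07-fold higher on the flag-labelled array than in Pcgf6KO.

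Among the other elastic fibre genes, 2 ran in opposite directions in Pcgf6KO. Ltbp2, a fibrillin-binding protein, read -0.59, -4.10 and -4.01, and so was 11.3-fold lower in Pcgf6KO and stayed there on the flag-labelled array. Efemp1, also called fibulin 3, read -2.93, -0.56 and -5.09. Efemp1 was 5.15-fold higher in Pcgf6KO than in wildtype and 23.1-fold lower on the flag-labelled array than in Pcgf6KO. Tgfbi, a secreted protein that binds collagen, had a like shape at -0.41, 0.55 and -2.63. Of the other basement membrane genes, Smoc2 was 7.33-fold lower in Pcgf6KO, and Lama4 was 4.78-fold lower on the flag-labelled array than in Pcgf6KO. The collagen receptors Itga11 and Ddr2 differed by -1.71 and -1.29 between Pcgf6KO and wildtype. The matrix proteases Mmp10, Mmp13 and Ctsk were named after their values were seen. They were measured in wildtype only, and in Pcgf6KO their bounds were at least 25.2-fold lower for Mmp10, 12.1-fold for Mmp13 and 20.8-fold for Ctsk.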

How the data were processed

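The scanner files hold spot intensity on a linear scale, deposited as background-subtracted processed signal, extracted with Agilent Feature Extraction 11.5.1.1 per the file headers, whereas the submitters' processing notes name version 10.7. The series value table held the same processed signal, unscaled, for 55249 of 55249 single-spot probes on each array (tolerance 1e-06), with column medians of 243, 273 and 313 and no ratio or centring.

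Each array had 62976 spots, 59305 of them not controls. The 141, 158 and 192 spots marked as outliers in wildtype, Pcgf6KO and Pcgf6KO+ Pcgf6_flag were dropped, and saturation marked 0 spots. Replicate spots were averaged as log2 of the processed signal minus the 75th percentile of the array. A probe counted as measured on an array if the majority of its remaining spots passed the well-above-background mark. The brightest probe that was measured at least once stood for its gene. Probe accessions, stripped of versions, were looked up among the RefSeq genes of GRCm38.p6, and 26762 of 55681 probes got a name. Since the design file is annotated on mm9, GRCm38.p6 served for names, gene order and RefSeq promoter sequences only.

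With 1 array per group no statistical test of a difference was run. Differences, 2-fold counts, medians (bounds included) and summed signals were computed for the members by role, for 83 other matrix genes and for marker lists. The members and lists were chosen with earlier results of these data known. Every member is named. From other lists, up to 2 of the largest differences in each direction per list are named among genes measured on both arrays, except where stated. The code that makes the 2-fold calls was checked on simulated data with known changes. Alternatives were median scaling, a percentile over the probes that all arrays measured, quantile normalization, normexp (offset 50, limma 3.58.1), the value table, the mean over probes, no filter on dim probes, outlier spots kept, thresholds of 1.5-fold and 3-fold, and bright genes only. The mean spot signal was replaced by the median spot signal for normexp. Python 3.11.15, numpy 2.4.6, pandas 2.3.3, matplotlib 3.10.9 and R 4.3.3 were used.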

Additional observations from a re-analysis of the deposited data

How the results depend on the processing

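No matrix gene changed sign in a 2-fold difference under any alternative, and the counts of lower members stayed at 13 to 15 for Pcgf6KO against wildtype, 13 to 18 for the flag-labelled array against Pcgf6KO and 25 to 27 against wildtype under every scaling, normalization, background, filter, probe and spot setting tried. Thresholds and the bright subset moved counts by construction. At 1.5-fold 24 members were lower in Pcgf6KO, against 1350 of 15861 genes, and 1 was higher in each of the 3 comparisons, against 2059, 2014 and 1809 genes. At 3-fold 11 were lower on the flag-labelled array than in Pcgf6KO, against 781 of 15323 genes. Among bright genes, which left 17 members, 4, 5 and 7 were lower in the 3 comparisons, against 52, 144 and 97 of 8024 genes, and the medians were -0.59, -0.025 and -0.50. Normexp gave medians of -0.79 for the flag-labelled array against Pcgf6KO and -1.80 against wildtype. With no filter on dim probes, 2 members came out higher on the flag-labelled array than in Pcgf6KO, against 1959 of 20274 genes. These were Fmod and Tnc, neither well above background on either array. The median of the members was -0.68 at this setting. Scaling to probes measured on all arrays put 1 member, Col5a2 at 1.02, above 2-fold in Pcgf6KO, against 1127 of 15871 genes. Beside these, 9 member differences crossed the 2-fold line. Serpinh1 reached -1.04 on the flag-labelled array against wildtype under median scaling. For the flag-labelled array against Pcgf6KO, Col4a1 came inside at -0.98 with outlier spots kept and Lox at -0.60 with the mean over probes, and under normexp Col6a1, Col4a1, Lox and Thbs2 came inside at -0.71, -0.99, -0.88 and -0.79. Normexp also put Timp2 just inside in Pcgf6KO against wildtype and Col5a2 at -0.95 on the flag-labelled array against wildtype. The cause of these shifts was not tested. Median scaling moved the median of all genes by -0.12 in the comparison of the flag-labelled array with wildtype. No paired analysis was possible because each group has 1 array, and slide as a block could not be fitted. For the 9 members seen on fewer than 3 arrays, comparisons with an array that did not measure them give a bound or no fold. Of these, 5 were measured in both wildtype and Pcgf6KO.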
